A study of Homo sapiens with 6 samples.

Results

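The ABC transporters described here are the 46 genes, of 57133 gene symbols counted, whose symbol is ABC followed by a subfamily letter from A to G and a number. They were counted in 6 RNA-seq libraries of T98G, an established glioblastoma line in which CBX8, a chromodomain subunit of Polycomb repressive complex 1 (PRC1), had been knocked out with Cas9. All 6 libraries come from that CBX8 knockout line, carry the rtTA activator and were treated with doxycycline at 1 μg/ml for 72 h. In 3 libraries (CBX8 KO) the cells carried an empty doxycycline-inducible vector, and in 3 (WT CBX8 re-expression) the vector with V5-tagged WT CBX8. The genotype label of the re-expression libraries reads wild type, whereas their titles and the study's methods give re-expression in the knockout line, and the titles were used. The methods describe antibiotic selection of both lines and do not say whether a line is 1 clone, so effects of CBX8 and differences between separately selected lines cannot be told apart. Whether the libraries come from separate cultures is not stated either, so n counts libraries, and p-values measure the spread between them, which may be technical. In such bulk RNA, fewer cells of a kind and less RNA per cell cannot be told apart.

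ATP-binding cassette (ABC) proteins share a nucleotide-binding domain that hydrolyses ATP. In most of them a pair of these domains drives a pair of membrane domains that moves a substrate across a membrane. Subfamily A mainly moves lipids, subfamily B holds P-glycoprotein and several mitochondrial transporters, and subfamily C holds the multidrug resistance-associated proteins and the sulfonylurea receptors. Subfamily D serves peroxisomes and lysosomes, subfamily G moves sterols and drugs, and the E and F proteins lack membrane domains and act on ribosomes and translation. In tumors such as glioblastoma the family is best known for exporting chemotherapy drugs.

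Total counts per library lay between 7950190 and 8659796. CBX8 itself was at 11.7 ± 0.94 CPM (counts relative to the normalized library size, SD, n = 3) in CBX8 KO and at 3489 ± 156 CPM (SD, n = 3) in the re-expression libraries. Of the 8 glioblastoma and astroglial markers, VIM, CD44 and EGFR were abundant, whereas SOX2 and S100B had no count in any library and NES had 15 counts in all. GFAP and OLIG2, the defining glial genes, had 119 and 126 counts in all and were above KO in every re-expression library (adjusted p = 0.13 and 0.056, edgeR), while CD44 fell by 0.21 on the log2 scale (adjusted p = 0.0097, edgeR). The part of these markers in the results was not tested. The summed level of 10 immune, endothelial, epithelial and neuronal markers was between 6.31 and 7.04 CPM in CBX8 KO and between 6.05 and 8.57 CPM in the re-expression libraries, with KRT5 at 0. Only CD68 and SYT1 of the 10 had enough counts to be tested, and neither passed (adjusted p = 0.89 and 0.55, edgeR), although SYT1 was above KO in every re-expression library.

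Of the 46 ABC genes, 25 had enough counts to be tested (edgeR's filterByExpr), 15 had few counts and 6 had none. At an FDR under 0.05, 4 of the 25 fell upon WT CBX8 re-expression and 0 rose. The genes that fell were ABCG2, ABCF2, ABCE1 and ABCC3, by between 0.23 and 0.39 on the log2 scale. Over all 14461 genes tested, 6.63% were called lower and 6.23% higher, and for the ABC genes the shares were 16% and 0%. At an unadjusted p under 0.05, 8 ABC genes were lower and 2 were higher, where 12.7% of all genes tested were lower and 12.7% higher. DESeq2 and limma voom also called 4 lower and 0 higher, beside 4.67% lower and 3.46% higher of all genes by DESeq2 and 6.57% and 6.04% by limma voom. The median log2 fold change of the 25 genes (re-expression minus KO) was -0.11, beside 0.0049 for all genes tested, and 16 of the 25 were negative. In 8 of the 25 all re-expression libraries lay below all KO libraries in CPM and in 3 all lay above, where 14.4% of all genes tested did so in each direction. With all libraries, no member changed by more than 1 on the log2 scale.

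**Figure D1:**
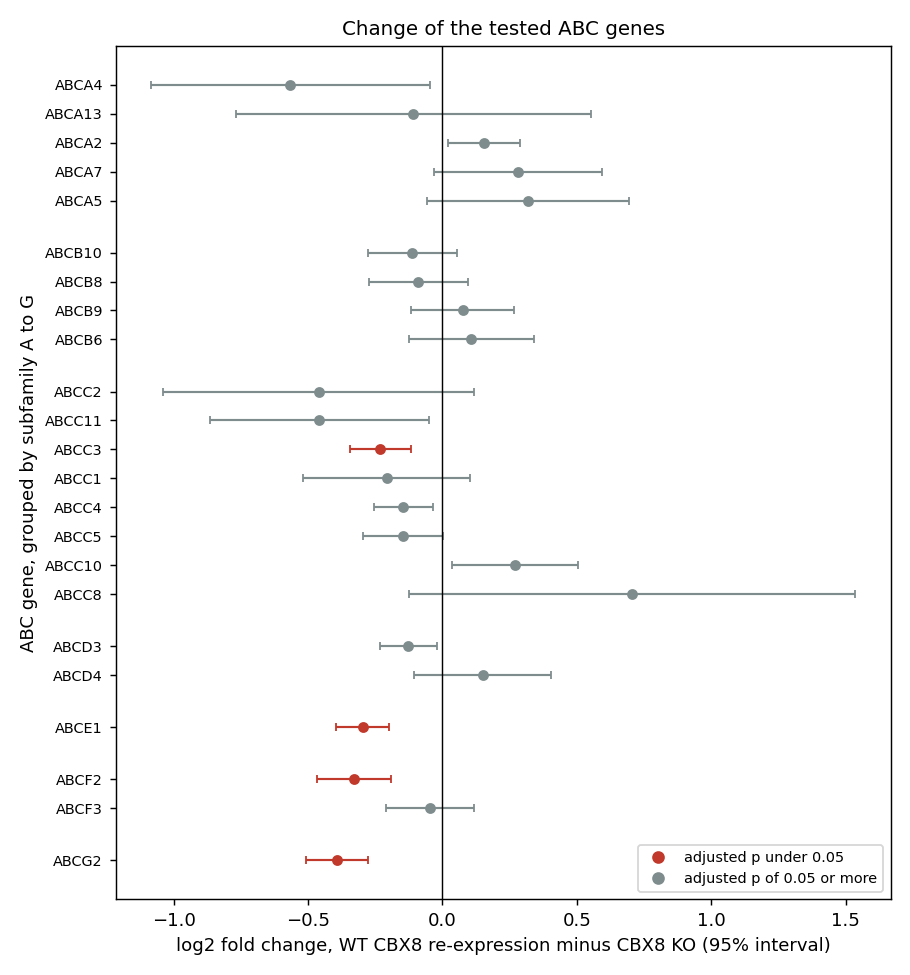
Log2 fold change of 23 tested ABC genes upon WT CBX8 re-expression (x axis, re-expression minus CBX8 KO), grouped by subfamily, with 95% intervals from edgeR's quasi-likelihood fit over 3 libraries a group. The 4 red points, ABCC3, ABCE1, ABCF2 and ABCG2, are those with an adjusted p under 0.05, and all lie below 0.

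Levels differed between members far more than between conditions. Per kilobase of the canonical transcript, ABCE1 was the most abundant member, at 93.4 ± 1.25 CPM per kb (SD, n = 3) in CBX8 KO. It was followed by ABCD3, a peroxisomal fatty acid transporter, at 38.7 ± 1.10, and by ABCC3 at 26.8 ± 1.24 CPM per kb, and the KO libraries of these 3 did not overlap. ABCG2 (20.9 ± 0.45), ABCF3 (20.9 ± 1.89) and ABCC4 (19.0 ± 0.73 CPM per kb) came next, and each overlapped its neighbour in this order. ABCF2 stood apart from its neighbours, at 12.6 ± 0.039 CPM per kb. ABCB9, ABCB10, ABCB8 and ABCC5 lay between 9.02 and 10.4 CPM per kb, each overlapping the next. From ABCA2 (6.64 ± 0.075) to ABCD4 (4.42 ± 0.62 CPM per kb), 6 genes followed with overlapping libraries. ABCC10 was at 2.90 ± 0.29 CPM per kb. The other 7 tested genes lay at or below 1.29 CPM per kb, down to ABCA13 at 0.14 ± 0.073.

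**Figure D2:**
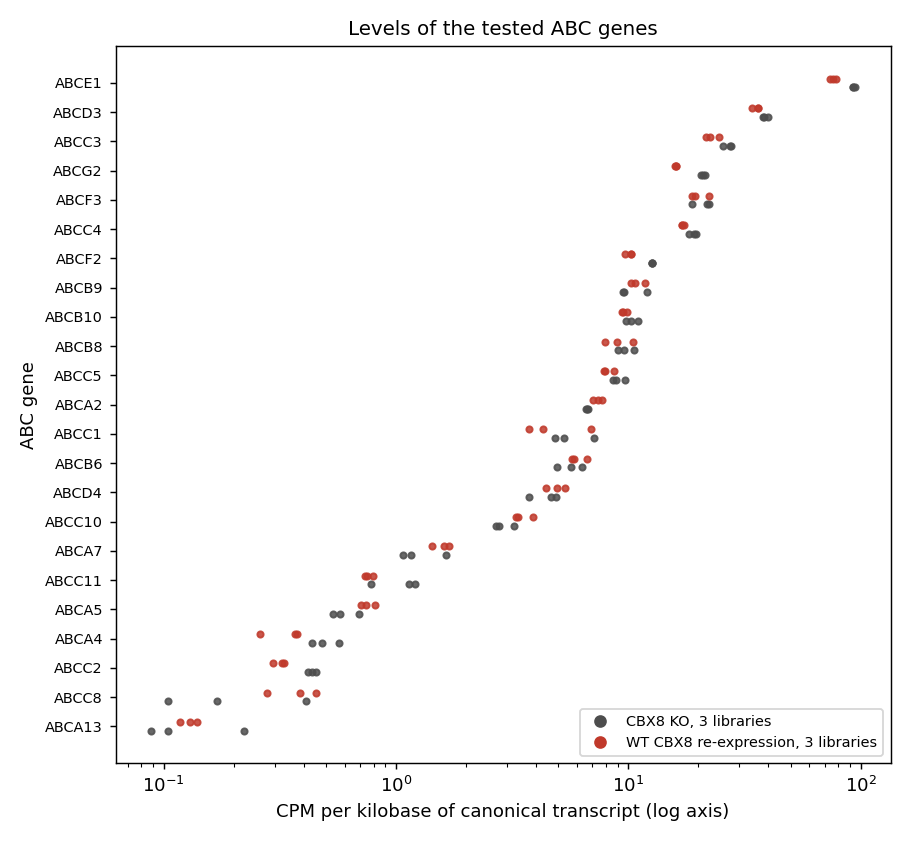
CPM per kilobase of the canonical transcript (x axis, log axis) of 23 tested ABC genes, ordered by their mean in CBX8 KO, with 1 point per library. ABCE1 is highest in every library. For ABCE1, ABCD3, ABCC3, ABCG2, ABCC4 and ABCF2, and for the low ABCA4 and ABCC2, the red re-expression points lie to the left of the gray KO points.

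ABCE1 (ENSG00000164163.11, chromosome 4 from 145098288 to 145129524, plus strand, hg38) encodes the ATPase that splits ribosomes for recycling after termination. It had 2919, 3039 and 2807 counts in CBX8 KO replicates 1 to 3 and 2506, 2502 and 2567 counts in the re-expression replicates. Every re-expression library was below every KO library. The mean CPM was 363 ± 4.85 in CBX8 KO and 295 ± 9.91 upon re-expression (SD, n = 3 each). On the log2 scale the change was -0.30, with a standard error of 0.047 (adjusted p = 7.2e-05, edgeR). Exons of OTUD4 and ANAPC10 on the opposite strand overlap those of ABCE1, and the strand setting of the counting is not given in the sources used here, so reads of these genes cannot be told apart there. OTUD4, a deubiquitinase gene, was lower too (-0.25, edgeR adjusted p = 0.0070), and ANAPC10 did not pass the test (-0.04, edgeR adjusted p = 0.83).

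ABCF2 (ENSG00000033050.9, chromosome 7 from 151211484 to 151227205, minus strand) encodes a cytosolic ABC protein without membrane domains. Its counts were 454, 481 and 445 in CBX8 KO and 394, 406 and 368 in the re-expression libraries. The groups did not overlap, with the KO libraries at 57.3, 57.1 and 57.0 CPM and the re-expression libraries at 46.3, 46.4 and 43.8 CPM. ABCF2 thus fell from a mean CPM of 57.1 ± 0.17 to 45.5 ± 1.46 (SD, n = 3 each). Its change was -0.33 on the log2 scale, with a standard error of 0.067 (adjusted p = 0.0013, edgeR). GENCODE release 44 places a read-through gene, ABCF2-H2BK1, on the same exons. It is not among the gene symbols counted, so any reads of it cannot be told apart from those of ABCF2. ABCF3, the other tested member of subfamily F, had a log2 fold change of -0.05 (95% interval -0.21 to 0.12, edgeR adjusted p = 0.77), with overlapping groups.

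ABCG2 (ENSG00000118777.12, chromosome 4 from 88090150 to 88231628, minus strand) encodes the breast cancer resistance protein, an exporter of drugs and urate. It had 698, 757 and 673 counts in CBX8 KO and 566, 593 and 564 upon re-expression. The lowest KO library was at 86.1 CPM and the highest re-expression library at 67.7 CPM. The group means were 88.1 ± 1.91 CPM and 67.1 ± 0.61 CPM (SD, n = 3 each), and ABCG2 fell by 0.39 on the log2 scale, with a standard error of 0.056 (adjusted p = 1.7e-05, edgeR). No other called member fell by as much.

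ABCC3 (ENSG00000108846.16, chromosome 17 from 50634777 to 50692253, plus strand) encodes an exporter of organic anions and glucuronide conjugates. Its counts were 1253, 1306 and 1131 in CBX8 KO and 1187, 1075 and 1077 upon re-expression. The raw counts overlap, also relative to the total counts of each library alone. In CPM, on the library size normalized by TMM, the groups did not, with a lowest KO library of 144.7 CPM and a highest re-expression library of 139.5 CPM. Between means of 153 ± 7.03 CPM and 130 ± 8.53 CPM (SD, n = 3 each), ABCC3 fell by 0.23 on the log2 scale, with a standard error of 0.056 (adjusted p = 0.0057, edgeR). Without WT CBX8 re-expression replicate 2 it did not pass the threshold (-0.19, edgeR adjusted p = 0.073).

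**Figure D3:**
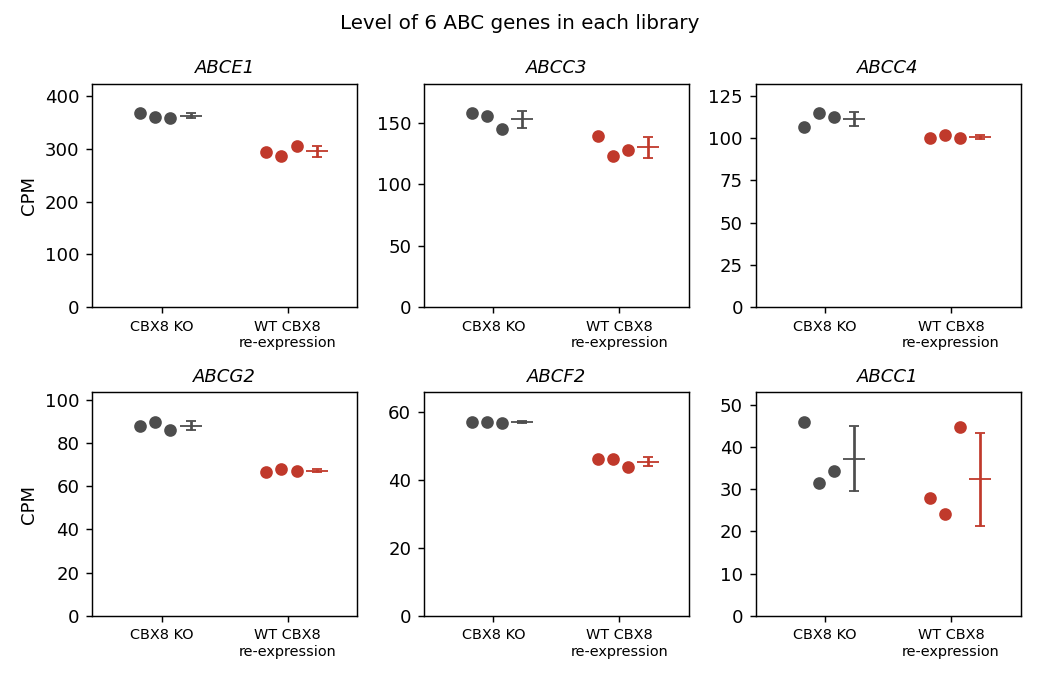
CPM (y axis, from 0) of 6 ABC genes in each library, with the mean and SD beside the 3 points of each group. For ABCE1, ABCC3, ABCC4, ABCG2 and ABCF2 the groups do not overlap, and for ABCC1 CBX8 KO replicate 1 and re-expression replicate 3 stand above the other libraries.

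Since ABCG2 is known to respond to the aryl hydrocarbon receptor (AHR) and to NRF2, the RefSeq promoters (GRCh38.p14) were searched for the letters their elements share. The search covered 250 bases before the start, on both strands, and 35 of the 46 members had a promoter in the table, ABCC3 not among them. The AHR core GCGTG was found in the promoters of ABCE1, ABCF2 and ABCG2, in 42.9% of the 35 members and in 32.2% of all 35116 promoters. The antioxidant core TGACNNNGC, which NRF2 binds, was found in none of these 3, in 17.1% of the members and in 10.9% of all promoters. The E-box CACGTG was in none of the 3 either, in 14.3% of the members and in 6.34% of all promoters. The GC box GGGCGG was in that of ABCF2, in 51.4% of the members and in 42.6% of all promoters. Uncalled ABCA7, ABCC4 and ABCC10, and ABCA3 and ABCF1, which were not tested, had 2 AHR cores each. A match of letters is not a binding site. Bases farther from the start, and other starts of the members, were not searched, so a missing core does not show that a gene lacks the element. The windows below show each AHR core of the 3 called genes in capitals with 12 bases on either side, on the strand on which it reads GCGTG, so that the flanks can be compared.
ABCE1, chr4:145098073-145098101, minus strand: ctccgacgtcgaGCGTGgtcctagcgtaa
ABCE1, chr4:145098240-145098268, minus strand: gcgcgacatagaGCGTGaggcggaaccct
ABCE1, chr4:145098282-145098310, plus strand: cctatggcttgcGCGTGcggcggctgggc
ABCF2, chr7:151227353-151227381, plus strand: cctcgcggggccGCGTGacgccatcagga
ABCF2, chr7:151227204-151227232, plus strand: ttaggatcctccGCGTGcggccggctcac
ABCG2, chr4:88158750-88158778, plus strand: gcgcggcggccgGCGTGggaggcgctgcg
ABCG2, chr4:88158672-88158700, minus strand: cgcgcgcgggctGCGTGctgtgcccactc

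The cores start 226, 59 and 17 bases before the start of the canonical transcript of ABCE1, 164 and 15 bases before that of ABCF2, and 127 and 49 bases before that of ABCG2, each counted from its end farther from the gene. For ABCF2 the whole stretch of 250 bases (chr7:151227206-151227455, minus strand) is shown, with the GC box and both AHR cores in capitals as they read on the gene's strand.
ABCF2 promoter: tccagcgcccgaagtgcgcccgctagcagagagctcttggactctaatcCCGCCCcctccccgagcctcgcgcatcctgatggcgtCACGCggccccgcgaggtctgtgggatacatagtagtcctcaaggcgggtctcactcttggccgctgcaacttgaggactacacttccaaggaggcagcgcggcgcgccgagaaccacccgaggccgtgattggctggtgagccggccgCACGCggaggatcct

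Among the 10 members known for drug efflux, 8 were tested, 2 fell (ABCC3 and ABCG2) and 0 rose, beside 6.63% lower and 6.23% higher of all genes tested. At an unadjusted p under 0.05, 4 were lower and 1 was higher (12.7% of all genes in each direction), and DESeq2 and limma voom called 2 lower and 0 higher. Their summed level was 87.5, 87.3 and 83.3 CPM per kb in CBX8 KO and 74.1, 71.9 and 75.4 CPM per kb in the re-expression libraries. The sum went from 86.0 ± 2.36 to 73.8 ± 1.75 CPM per kb (SD, n = 3 each), and the difference of the means was -12.2 CPM per kb, of which ABCG2 and ABCC3 together gave -8.93. ABCC3 held 31.2% of the summed level in CBX8 KO, ABCG2 24.3% and ABCC4 22.1%, and these shares were 31.0%, 21.6% and 23.3% upon re-expression.

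**Figure D4:**
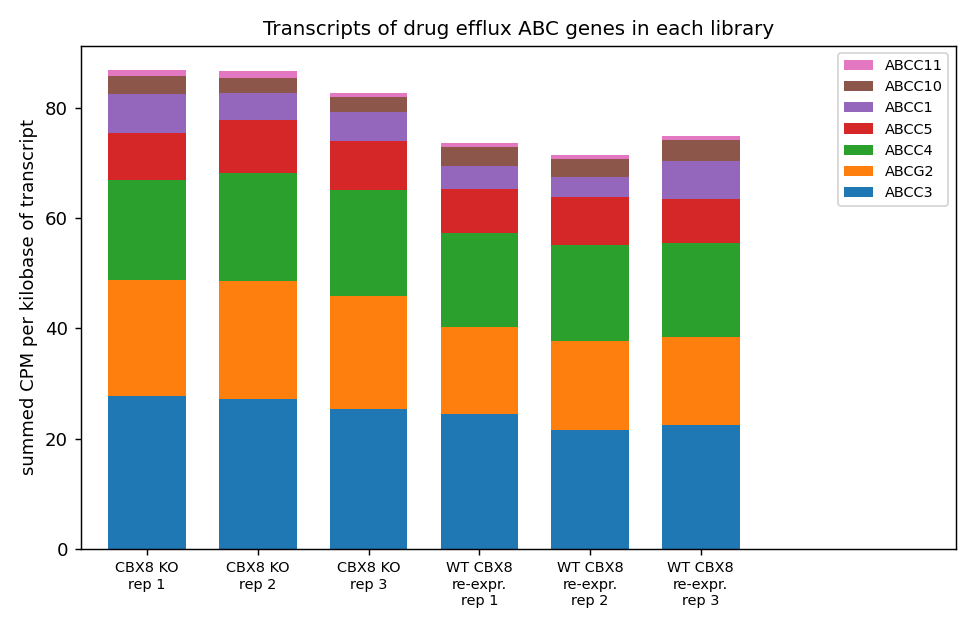
Summed CPM per kilobase (y axis, from 0) of the 7 drug efflux genes with over 200 counts in all, stacked by gene, in each library. The columns of the 3 CBX8 KO libraries are all taller than those of the 3 re-expression libraries, and ABCC3, ABCG2 and ABCC4 take most of each column.

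ABCC4, an exporter of cyclic nucleotides and nucleotide analogs, was the uncalled member nearest to the threshold among those with lower levels. Its counts were 845, 968 and 879 in CBX8 KO and 851, 893 and 839 upon re-expression. It was at 111 ± 4.29 CPM and at 101 ± 1.19 CPM (SD, n = 3 each), without overlap, and differed by -0.15 in log2 (95% interval -0.26 to -0.04, edgeR adjusted p = 0.072). Without CBX8 KO replicate 1 it passed the threshold (-0.18, edgeR adjusted p = 0.040).

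ABCC5, which also exports cyclic nucleotides, had 393, 469 and 401 counts in CBX8 KO and 386, 440 and 386 upon re-expression, and the groups overlapped in CPM. Its log2 fold change was -0.15 (95% interval -0.30 to 0.0034, edgeR adjusted p = 0.21). ABCC10, a transporter of lipophilic drugs such as taxanes, had 129, 118 and 106 counts in CBX8 KO and 143, 145 and 164 upon re-expression. All 3 re-expression libraries were above the KO libraries, and the log2 fold change of 0.27 did not pass the adjusted threshold (95% interval 0.035 to 0.50, edgeR adjusted p = 0.13). Exons of DLK2 overlap those of ABCC10 on the opposite strand.

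Low members of the efflux group were measured with less precision. ABCC11, an exporter of lipophilic anions, had 53, 60 and 36 counts in CBX8 KO and 40, 38 and 37 upon re-expression, a difference of -0.46 in log2 (95% interval -0.87 to -0.050, edgeR adjusted p = 0.14). Without CBX8 KO replicate 3, the lowest of its group, it passed the threshold (-0.62, edgeR adjusted p = 0.043). ABCC2, the exporter of conjugated bilirubin in the liver, had between 19 and 22 counts in CBX8 KO and between 15 and 16 upon re-expression, a difference of -0.46 in log2 (95% interval -1.04 to 0.12, edgeR adjusted p = 0.33). ABCB1, which encodes P-glycoprotein, had 3, 7 and 7 counts in CBX8 KO and 5, 4 and 3 upon re-expression, too few to be tested, and a difference was not detectable at this depth. ABCB5 had 1 count in all.

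ABCC1, the exporter of glutathione conjugates known as multidrug resistance-associated protein 1, was uneven between libraries of the same group. Its counts were 365, 265 and 268 in CBX8 KO and 237, 212 and 377 upon re-expression, so that CBX8 KO replicate 1 and re-expression replicate 3 were high and the groups overlapped. The log2 fold change was -0.21 (95% interval -0.52 to 0.10, edgeR adjusted p = 0.43). It was -0.52 and passed the threshold without re-expression replicate 3 (edgeR adjusted p = 0.0069), and it was -0.03 without CBX8 KO replicate 1 (edgeR adjusted p = 0.94). ABCC1 lies on chromosome 16 from 15949138 to 16143257, where hg38 also holds 1 alternate contig to which 95% or more of the canonical transcript aligns. Of the 13 other protein-coding genes of the table within 1 Mb, 12 had at most 100 counts in every library, and several of these were uneven, such as RRN3 (0, 28 and 43 counts in CBX8 KO, 50, 3 and 100 upon re-expression). The other gene, XYLT1, had 504, 557 and 528 counts in CBX8 KO and 595, 668 and 695 upon re-expression. Alternate contigs of these neighbours were not searched. The level of ABCC1 is uncertain, since its libraries differ within each group, and the cause of that was not tested.

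The remaining tested members of subfamily C, and all those of A, B and D, did not pass the test. ABCC8, the sulfonylurea receptor of potassium channels, had 16, 7 and 4 counts in CBX8 KO and 19, 12 and 16 upon re-expression, with overlap (log2 fold change 0.71, 95% interval -0.13 to 1.54, edgeR adjusted p = 0.29). The value was 1.41 without CBX8 KO replicate 1 and 0.37 without CBX8 KO replicate 3, and passed in neither. In subfamily A, 5 of 12 members were tested, with log2 fold changes from -0.57 for ABCA4 to 0.32 for ABCA5, whose exons overlap those of ABCA10, and a median of 0.15. By edgeR 0 of them were called, 1 was lower and 1 higher at an unadjusted p under 0.05, and DESeq2 and limma voom called 0.

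ABCA2, a lipid transporter of lysosomes that is abundant in myelinating cells, was the uncalled member nearest to the threshold among those with higher levels. It had 430, 447 and 422 counts in CBX8 KO and 533, 526 and 478 upon re-expression, with all re-expression libraries above. Its log2 fold change was 0.15 (95% interval 0.021 to 0.29, edgeR adjusted p = 0.13), and with library size scaling it was 0.21 and passed (edgeR adjusted p = 0.034). ABCA7, a phospholipid transporter, was at 0.28 (edgeR adjusted p = 0.26), with 94 counts in the highest KO library and 82 in the lowest re-expression library, and it was 0.49 without CBX8 KO replicate 2 and 0.16 without CBX8 KO replicate 1. ABCA4, the retinoid transporter of photoreceptors, had between 25 and 35 counts in CBX8 KO and between 16 and 24 upon re-expression, without overlap in CPM (edgeR adjusted p = 0.15).

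Mitochondrial and lysosomal transporters of subfamily B stayed close to 0 in log2 fold change. The 5 tested members ranged from -0.11 for ABCB10, which serves heme synthesis in mitochondria, to 0.11 for ABCB6, a porphyrin transporter, with a median of -0.09. ABCB8, a mitochondrial member, was at -0.09 (95% interval -0.27 to 0.095), and ABCB9, a lysosomal peptide transporter, at 0.08 (95% interval -0.12 to 0.27). The groups overlapped for all 5, and edgeR called 0, with 0 at an unadjusted p under 0.05 and 0 by DESeq2 or limma voom.

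In subfamily D, ABCD3 had 1141, 1166 and 1065 counts in CBX8 KO and 1111, 1139 and 1033 upon re-expression, and all re-expression libraries were below in CPM (136.3 at the lowest KO library, 130.6 at the highest re-expression library). Relative to the total counts of each library alone, without TMM, the groups overlapped. The log2 fold change of ABCD3, -0.13, did not pass the adjusted threshold (95% interval -0.23 to -0.020, edgeR adjusted p = 0.12). ABCD4, which releases cobalamin from lysosomes, was at 0.15 (edgeR adjusted p = 0.49), with overlap. edgeR called 0 of the 3, with 1 lower and 0 higher at an unadjusted p under 0.05, and DESeq2 and limma voom called 0.

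The 21 members that were not tested had at most 12 counts in any library. ABCA8, ABCA9, ABCB11, ABCC12, ABCC13 and ABCG5 had 0 counts in all 6 libraries, which allows up to 3 counts of 49934588, or 0.060 CPM, for counting error only. ABCC13 is annotated as a pseudogene. The cholesterol exporters of the family were near the detection limit, with ABCA1 at 0, 4 and 2 counts in CBX8 KO and 3, 9 and 3 upon re-expression. ABCG1 had 1 count in all and ABCG4 between 2 and 7 per library, and the bile and plant sterol exporter ABCG8 had at most 2. ABCA3, the surfactant lipid transporter, had between 1 and 12. ABCA6, ABCA10, ABCA12, ABCB4, ABCC6, ABCC9 and ABCD2 had at most 3 counts in a library.

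ABCF1, which is known to promote translation initiation, had 1 count in CBX8 KO replicate 1 and 0 in the other libraries, whereas its relatives ABCF2 and ABCF3 had between 368 and 481. ABCF1 lies on chromosome 6 from 30571393 to 30597179, in the major histocompatibility complex, and its canonical transcript also aligns, over 95% or more of its bases, to 6 alternate contigs of hg38. TAP1 and TAP2, ABC proteins under other symbols that carry peptides to class I molecules, lie in the same complex and have 7 such contigs each. TAP1 had 0 counts and TAP2 had 2. Of all 46 members, 3 had such a copy, namely ABCF1, ABCC1 and ABCC6. No expression or absence of it is read from these counts.

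CFTR, the ABC chloride channel that carries no ABC symbol and so is outside the 46, rose from low counts. It had 7, 3 and 4 counts in CBX8 KO and 18, 27 and 31 upon re-expression, without overlap. The level went from 0.58 ± 0.27 to 2.96 ± 0.79 CPM (SD, n = 3 each), which is 2.32 on the log2 scale (95% interval 1.52 to 3.12, edgeR adjusted p = 0.00013). No tested ABC gene of the 46 changed by as much.

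Partner genes of the transporters were compared in the same fit. Of the 13 xenobiotic sensors and conjugating enzymes, 11 were tested, 3 fell and 0 rose, beside 6.63% lower and 6.23% higher of all genes tested (0 were higher at an unadjusted p under 0.05, and 0 by DESeq2 or limma voom). MGST1, a membrane glutathione transferase, fell by 0.55 on the log2 scale (edgeR adjusted p = 2.4e-08), and GSTK1, the peroxisomal and mitochondrial one, fell by 0.27 (edgeR adjusted p = 0.0064). AHR fell by 0.21 (edgeR adjusted p = 0.017) and did not pass with DESeq2 (adjusted p = 0.053), with library size scaling (0.070) or without CBX8 KO replicate 1 (0.092), re-expression replicate 1 (0.099) or re-expression replicate 2 (0.084). NFE2L2, which encodes NRF2, was at -0.07 (edgeR adjusted p = 0.38), and NR1I2, which encodes the drug sensor PXR, had no counts. GSTK1 did not pass without CBX8 KO replicate 2 (edgeR adjusted p = 0.084).

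Of 12 sterol efflux partners, 10 were tested, 1 fell and 0 rose, beside 6.63% lower and 6.23% higher of all genes tested. The gene that fell was SREBF2, the master regulator of cholesterol synthesis (-0.41, edgeR adjusted p = 5.5e-05). An antisense gene, SREBF2-AS1, overlaps its exons. The LXR receptors NR1H2 and NR1H3, which activate ABCA1 and ABCG1, had log2 fold changes of -0.07 and 0.0090 (edgeR adjusted p = 0.69 and 0.97). Without re-expression replicate 3, 2 of the 10 were lower. Of the 12 peroxisomal partners of subfamily D, all tested, 1 fell and 1 rose, beside the same shares of all genes. The acyl-CoA synthetase ACSL1 fell (-0.28, edgeR adjusted p = 0.00092) and the acyl-CoA synthetase ACSL4 rose (0.22, edgeR adjusted p = 0.0040).

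Of the 10 mitochondrial iron-sulfur and heme partners, 3 fell, namely SLC25A37, the mitochondrial iron importer (-0.22, edgeR adjusted p = 0.0081), ALAS1, the first enzyme of heme synthesis (-0.20, edgeR adjusted p = 0.018), and FECH, its last (-0.22, edgeR adjusted p = 0.040). Over all genes tested 6.63% were lower. The count of 3 did not hold when any library was left out, and was then between 0 and 2. It was 0 without CBX8 KO replicate 2 or re-expression replicate 2, and 1 without CBX8 KO replicate 3 or re-expression replicate 1. It was also 1 with DESeq2 and with library size scaling. FECH lost its call in 10 of the alternative fits, ALAS1 in 6 and SLC25A37 in 2. None of the 10 was higher at an unadjusted p under 0.05.

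For ABCE1 and the F proteins, 10 partners in ribosome recycling and stalling were tested and edgeR called 0. At an unadjusted p under 0.05, 2 were lower and 0 higher (12.7% of all genes tested in each direction). DESeq2 called 0 and limma voom 1 lower, and edgeR called 1 lower without CBX8 KO replicate 1, re-expression replicate 1 or re-expression replicate 3. ETF1, the termination factor that acts before ABCE1, was at -0.14 (edgeR adjusted p = 0.057), and PELO, the rescue factor that binds stalled ribosomes, at -0.03 (edgeR adjusted p = 0.84). Of the 5 tested cobalamin partners of ABCD4, 1 fell and 0 rose, beside 6.63% lower and 6.23% higher of all genes tested. The gene that fell was MMACHC (-0.35, edgeR adjusted p = 8.5e-06), whose exons overlap those of PRDX1 on the opposite strand. PRDX1, an abundant peroxiredoxin gene, fell by 0.32 (edgeR adjusted p = 3.7e-05). As the strand setting of the counting is not given, reads of MMACHC and PRDX1 cannot be told apart there. Without CBX8 KO replicate 3 or without re-expression replicate 3, 2 of the 5 were lower, and with library size scaling 1 was higher.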

How the data were processed

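RNA was measured as poly(A) RNA-seq (100 bp paired-end reads) in 6 libraries of the T98G CBX8 KO line, grouped by their titles. The authors trimmed reads with Trimmomatic, aligned them to hg38 with HISAT2 (also in the submitters' processing notes) and deposited raw counts per gene symbol. The counting program, annotation and strand setting are not given in the sources used here. The limit for genes with no count covers counting error only, as PCR reads carry no molecular identifiers. The 95% intervals of log2 fold changes come from the fit.

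All genes passing filterByExpr of edgeR 4.0.16 (R 4.3.3, defaults) entered 1 fit with TMM scaling and condition as the only term (glmQLFit, then glmQLFTest for re-expression minus KO). Benjamini-Hochberg adjustment ran over all 14461 genes tested, with the study's FDR limit of 0.05. Standard errors are the absolute log2 fold change over the square root of F. Alternatives used 3 scalings, DESeq2 1.42.0, limma 3.58.1 voom, 2 filters, a replicate block and each library left out. Positions and canonical transcript lengths came from GENCODE release 44, which has all 46 symbols. Alternate copies were found with minimap2 2.31 on 261 contigs. A share of 35116 RefSeq promoters was counted for each motif.

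The members, the partner and marker lists, and the rule for naming genes were chosen with earlier results of these data known. The rule names every called member, every drug efflux member, the 3 members of each subfamily with the highest level per kilobase, the uncalled member nearest to the threshold on each side, and called partner genes. ABCA4, ABCB6, ABCC8, CFTR, TAP1, TAP2, RRN3, XYLT1 and uncalled partner genes were named after their values were seen. The values of 2 tested members, neither of them called, are not reported here. The recount of the partner lists under the alternatives, the check of neighbours of ABCC1 and the motif search were chosen after seeing the data.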

Additional observations from a re-analysis of the deposited data

How the results depend on the processing

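The 4 ABC genes called lower were 4 under every scaling, filter and tool run, and between 3 and 5 when each library was left out in turn. The number called higher was 0 except with library size scaling, where it was 1 (ABCA2). That scaling leaves out the TMM factors, which were between 0.97 and 0.99 in CBX8 KO and between 1.01 and 1.03 upon re-expression. Over all genes it gave 592 lower and 1400 higher, beside 959 and 901 in the main fit. With the replicate number as a block, 4 were lower and 0 higher. Deviations from the group means correlated at -0.089, -0.050 and -0.036 between same-numbered libraries (14461 genes), so that the block has no support as a pairing, and over all genes the block moved the calls from 959 lower and 901 higher to 766 and 739. Of the 350 recomputed values of the 25 tested members, 340 kept their direction and side of the threshold, 1 lost its call, 4 gained one and 5 changed sign. None of the sign changes concerned a called member. ABCA13 was at 0.0039 with limma voom and between -0.35 and 0.42 with 1 library left out. ABCF3 was at 0.0091 with library size scaling and between -0.13 and 0.0035 with 1 library left out, and ABCB8 was between -0.20 and 0.0021. The cause of these changes was not tested. Of the 154 recomputed values of the 11 called partner genes, 24 lost their call and 0 changed sign. At this depth members with few counts have wide intervals, such as -1.04 to 0.12 for ABCC2, which holds a change of the size seen in ABCG2 (-0.39).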
